A study of Homo sapiens with 6 samples.

Results

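The alpha- and beta-tubulin genes were examined in SW480, an established human line grown out of a colorectal adenocarcinoma, with the genotype given as wild type. The members are the rows of the deposited mRNA table whose symbol begins with TUBA or TUBB, and the table holds 8 of them among 8529 genes. They comprise 2 alpha-tubulin genes, TUBA1B and TUBA4A, and 6 beta-tubulin genes, TUBB, TUBB2A, TUBB2B, TUBB3, TUBB4B and TUBB6. Other alpha- and beta-tubulin genes were not analysed here. The family was selected on the rise of TUBB from soft to stiff matrix, which the study had singled out in these same libraries. The difference of TUBB is therefore given as a description without a test, whereas the remaining 7 members were taken by symbol.

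Cells were plated on hydrogels of 2 kPa, the soft matrix, or 25 kPa, the stiff matrix, and held for 72 h without CO2. RNA from 3 wells at each stiffness gave 3 libraries per group, and both groups shared the same cell line, medium and incubation. It is not stated that the wells were set up from separate cultures, so the spread between libraries may be partly technical. Values are FPKM, fragment counts scaled for the length of the gene and for the number of reads in the library, which allows levels to be compared between genes of different length. All results concern 1 cell line.

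Tubulins are the building blocks of microtubules. An alpha- and a beta-tubulin protein pair into a heterodimer, and heterodimers stack head to tail into the wall of a hollow filament that serves as a track for transport, a support for cell shape and the main fibre of the mitotic spindle. Vertebrates carry several genes for each partner, the isotypes, whose proteins are very similar along most of their length and differ chiefly in an acidic tail at the carboxyl end that projects from the filament surface. Cells also adjust tubulin mRNA to the pool of free heterodimers. When free tubulin is abundant, the factor TTC5 recognises the first residues of tubulin as they leave the ribosome and triggers decay of the mRNA being translated.

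The start of each coding sequence is shown because these opening codons specify the residues that TTC5 reads. The sequences are those of the principal GENCODE v29 transcript of each gene (GRCh38), with the opening 12 bases in capitals and the following coding bases in lower case.
TUBA1B: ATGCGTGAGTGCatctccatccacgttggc
TUBA4A: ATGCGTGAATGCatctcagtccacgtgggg
TUBB: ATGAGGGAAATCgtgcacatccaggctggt
TUBB4B: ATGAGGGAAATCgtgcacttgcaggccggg
TUBB2B: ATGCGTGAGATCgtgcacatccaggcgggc
TUBB2A: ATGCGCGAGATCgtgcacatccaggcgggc
TUBB6: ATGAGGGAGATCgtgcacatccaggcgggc
TUBB3: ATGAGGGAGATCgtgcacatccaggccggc
TUBB and TUBB4B share all 12 opening bases. TUBB3 and TUBB6 differ from TUBB at 1 of the 12, TUBB2A and TUBB2B at 3, and the pair of alpha-tubulin genes differ from each other at 1. None of these base differences changes the encoded residues, which are Met-Arg-Glu-Ile in every beta-tubulin gene and Met-Arg-Glu-Cys in both alpha-tubulin genes.

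The close of each beta-tubulin coding sequence is shown because it encodes the tail by which the isotypes are told apart. The last 60 coding bases are in lower case and the stop codon is in capitals.
TUBB: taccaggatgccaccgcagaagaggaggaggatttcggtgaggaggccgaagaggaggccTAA
TUBB4B: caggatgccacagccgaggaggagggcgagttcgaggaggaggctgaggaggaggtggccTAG
TUBB2B: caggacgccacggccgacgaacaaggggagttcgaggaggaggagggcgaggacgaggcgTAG
TUBB2A: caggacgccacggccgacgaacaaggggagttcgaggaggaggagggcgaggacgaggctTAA
TUBB6: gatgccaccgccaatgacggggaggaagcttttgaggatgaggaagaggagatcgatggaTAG
TUBB3: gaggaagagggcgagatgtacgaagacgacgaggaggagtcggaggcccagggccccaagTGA
Across the 15 pairs of beta-tubulin genes, the identity of aligned coding bases had a median of 86.0% and ranged from 80.9% to 98.2%. Over the last 60 bases alone the median was 57.6%. TUBB2A and TUBB2B stood apart from the other pairs, with 98.2% identity over the coding sequence and 98.3% over its last 60 bases. The 2 alpha-tubulin genes were 85.7% identical, and the 12 pairs of an alpha with a beta gene had a median of 53.5%.

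This likeness bears on how far a level can be assigned to a gene. Each principal transcript was cut into overlapping windows of 50 bases, and each window was sought in all other GENCODE transcripts. For TUBB6, 0.993% of windows occurred in a transcript of another gene, for TUBA4A 5.25%, for TUBB4B 9.89% and for TUBB 18.2%, in the case of TUBB mostly the pseudogene TUBBP1. By this scan of exact matches, most windows of these 4 genes were their own, although 33.4% of the coding windows of TUBB were shared. Over the whole transcript the share was 52.2% for TUBB2B and 65.5% for TUBB2A, chiefly windows common to both. For TUBA1B it was 62.7%, with TUBA1A and TUBA1C as the main partners, neither of which has a row in the table. For TUBB3 it was 89.4%, each of them found in the gene model AC092143.1, whereas TUBB2A and TUBB2B each held 8.26% of the TUBB3 windows. How the authors' counting divided such reads is not given in the sources used here, and the levels of TUBA1B, TUBB2A, TUBB2B and TUBB3 are uncertain to that extent.

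**Figure D1:**
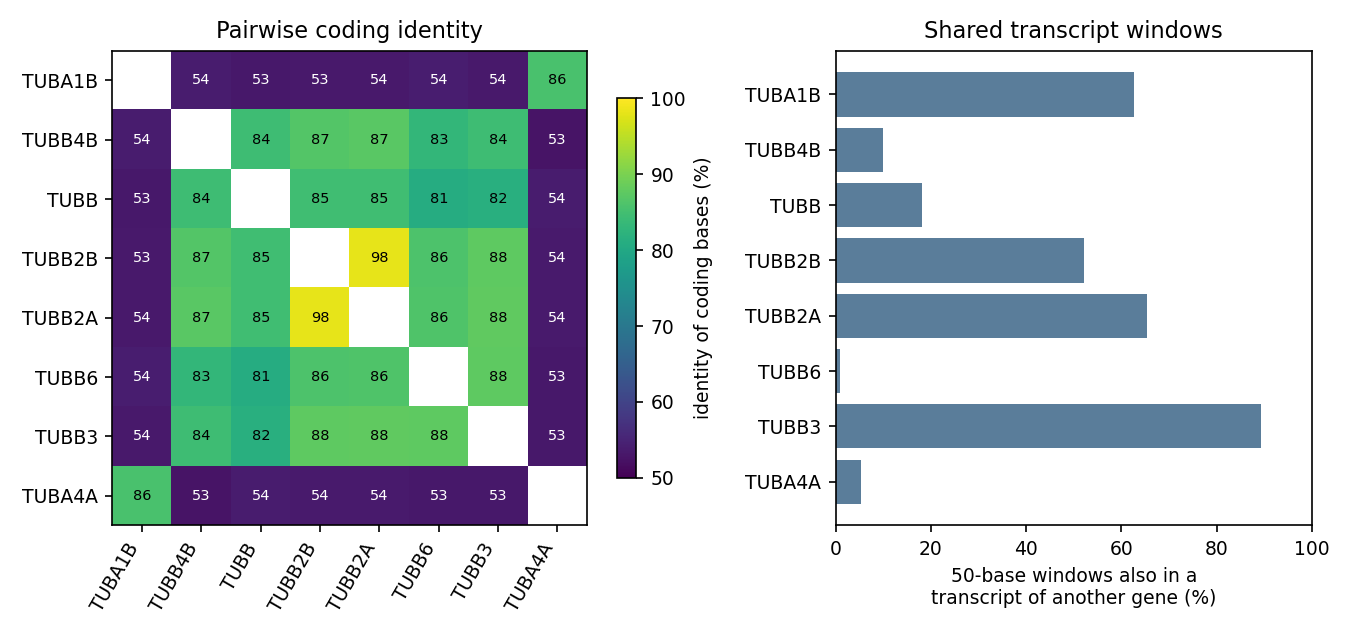
Identity of coding bases between each pair of the 8 tubulin genes (left, percent, colour scale from 50 to 100) and the share of each gene's 50-base transcript windows that also occur in another gene (right, percent, bars from 0). The brightest cell is the pair TUBB2A and TUBB2B at 98.2%, and the longest bar is TUBB3 at 89.4%, all in the gene model AC092143.1.

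The levels of the family fell into an abundant and a scarce tier. In the plot of FPKM by gene, TUBA1B, TUBB4B, TUBB and TUBB2B lay in that order at both stiffness levels, with no overlap between the libraries of neighbouring genes. TUBA1B ranked 40th of all genes by mean FPKM, TUBB4B 112th, TUBB 163rd and TUBB2B 564th. The other 4 members, TUBB2A, TUBB6, TUBB3 and TUBA4A, had means of 2.08, 1.55, 1.49 and 0.640 FPKM over the 6 libraries. Genes next to each other in this lower tier overlapped at both stiffness levels. At 2 kPa TUBB2A lay above TUBB6 and TUBA4A without overlap, and at 25 kPa TUBB6 and TUBB2A lay above TUBA4A without overlap. TUBB3, used elsewhere as a marker of neurons, was thus in the lower tier of the family by FPKM in these epithelial cells. Its level is uncertain, since 89.4% of its windows also occur in the gene model AC092143.1.

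**Figure D2:**
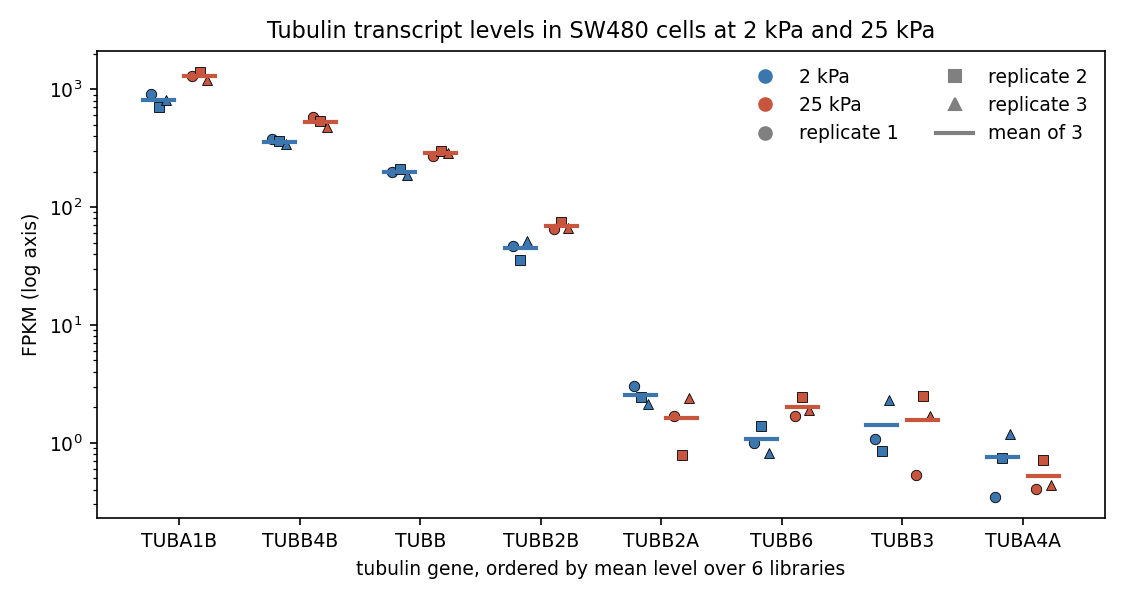
FPKM (log axis) of each tubulin gene in the 3 libraries at 2 kPa (blue) and the 3 at 25 kPa (red), with the replicate number given by the symbol and the mean of 3 libraries by the bar. Red and blue points do not overlap for TUBA1B, TUBB4B, TUBB, TUBB2B and TUBB6.

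TUBB, also called class I beta-tubulin, is the isotype found in most dividing cells. On GRCh38 it occupies chr6:30720201-30725426, forward strand, and its principal transcript has 4 exons and encodes 444 residues. Its FPKM was 198.16, 210.54 and 188.68 in the libraries at 2 kPa and 273.45, 296.98 and 290.10 in those at 25 kPa. The lowest library at 25 kPa was well above the highest at 2 kPa. The means were 199 ± 10.96 and 287 ± 12.1 FPKM (SD, n = 3), a 1.44-fold difference. On the log2(FPKM + 1) scale the difference was 0.52 (standard error 0.12), which is the value the family was selected on and is given without a test. It became 0.40 after FPKM were rescaled to equal library sums and 0.32 after quantile normalisation.

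TUBB4B, the most abundant beta-tubulin here and a widely expressed isotype that also builds cilia, lies at chr9:137241213-137243707. It had 377.26, 361.03 and 340.02 FPKM at 2 kPa and 578.61, 535.70 and 476.92 FPKM at 25 kPa. The groups did not overlap. The means were 359 ± 18.7 and 530 ± 51.1 FPKM (SD, n = 3), and the difference on the log2 scale was 0.56 ± 0.15 (standard error, limma adjusted p = 0.230). TUBB2B, an isotype best known from developing neurons, had 46.93, 35.83 and 51.51 FPKM at 2 kPa and 65.34, 74.88 and 66.42 FPKM at 25 kPa. Here too every library at 25 kPa was above every library at 2 kPa. Its means were 44.8 ± 8.06 and 68.9 ± 5.22 FPKM (SD, n = 3), with a log2 difference of 0.62 ± 0.15 (standard error) and a limma adjusted p of 0.193.

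TUBA1B, the principal alpha-tubulin of most cell types, lies on the reverse strand at chr12:49127782-49131397. Its FPKM was 909.80, 708.51 and 813.35 at 2 kPa and 1282.40, 1397.88 and 1198.48 at 25 kPa. The groups did not overlap, and the difference of their means in FPKM was the largest of the 8 members. The means were 811 ± 101 and 1293 ± 100.1 FPKM (SD, n = 3), a 1.60-fold difference, or 0.68 ± 0.19 (standard error) on the log2 scale, with a limma adjusted p of 0.266. The lower end of its 95% interval was 0.24 on the log2 scale.

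The scarce members went different ways. TUBB6, a beta isotype of many non-neuronal tissues and the member with the fewest shared windows, had 0.99, 1.40 and 0.82 FPKM at 2 kPa and 1.70, 2.47 and 1.90 FPKM at 25 kPa. Its libraries did not overlap, and the log2 difference was 0.55 ± 0.21 (standard error), with a limma adjusted p of 0.426. TUBB2A, a second isotype of neurons and other tissues, had 3.01, 2.44 and 2.15 FPKM at 2 kPa and 1.68, 0.79 and 2.42 FPKM at 25 kPa. Its groups overlapped through 25 kPa replicate 3, and its log2 fold change was -0.47 with a 95% interval from -1.10 to 0.16 (limma adjusted p = 0.624).

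TUBB3 had 1.07, 0.86 and 2.29 FPKM at 2 kPa and 0.53, 2.49 and 1.70 FPKM at 25 kPa. The spread within each group was larger than the difference of the means, and the log2 fold change of 0.06 had a 95% interval from -0.72 to 0.84 (limma adjusted p = 0.975). Its sign changed to -0.01 after rescaling to equal library sums. TUBA4A, an alpha isotype abundant in blood platelets, had 0.35, 0.74 and 1.18 FPKM at 2 kPa and 0.41, 0.72 and 0.44 FPKM at 25 kPa. Its groups overlapped widely, with a log2 fold change of -0.18 and a 95% interval from -0.61 to 0.25 (limma adjusted p = 0.823).

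**Figure D3:**
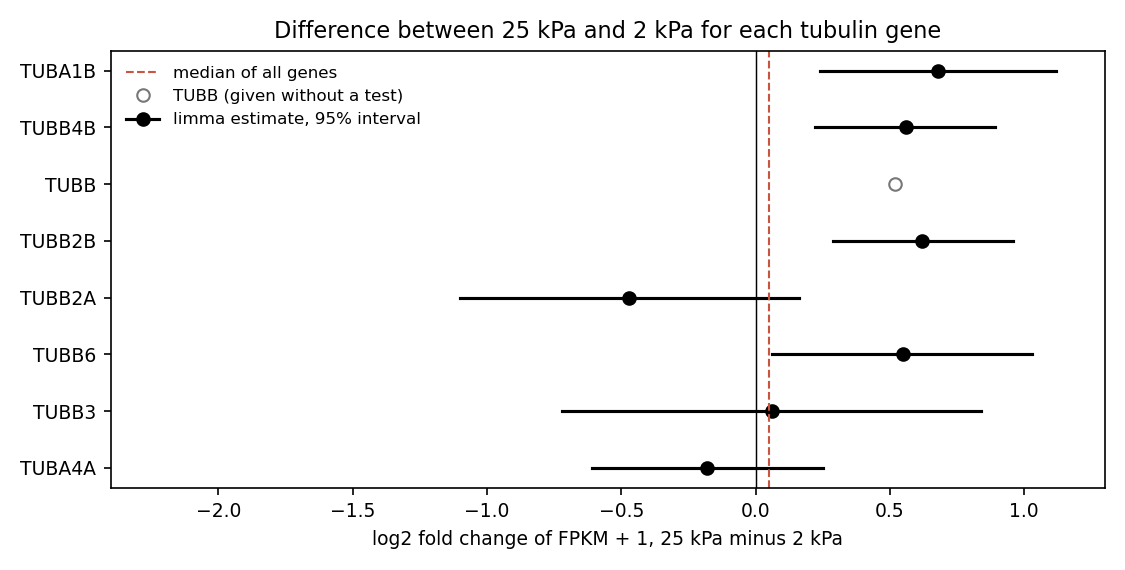
Log2 fold change of FPKM + 1 between 25 kPa and 2 kPa for each tubulin gene, with the 95% interval from limma (line) for every gene except TUBB, which is an open circle without an interval. The dashed line is the median of all genes, at 0.05. TUBA1B, TUBB4B, TUBB2B and TUBB6 have intervals above 0, and TUBB2A, TUBB3 and TUBA4A have intervals that cross it.

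Among the 7 members other than TUBB, limma gave 0 genes below the adjusted threshold of 0.05, which 0.117% of all genes passed. At an unadjusted p under 0.05, 4 of the 7 were higher at 25 kPa, against 6.96% of all genes, and 0 were lower, against 3.19%. Of all genes at that threshold, 68.6% were higher at 25 kPa, a share that became 42.7% with equal library sums, where TUBB6 no longer passed and 3 of the 7 members did. After median centring 3 also passed, without TUBA1B. Of all 8529 genes, 695 passed in either direction with equal library sums and 781 after median centring. The libraries of the groups did not overlap, with 25 kPa higher, for 4 of these 7, against 11.2% of all genes. They did not overlap with 25 kPa lower for 0 of the 7, against 4.78% of all genes. The log2 fold change was above 0 in 5 of the 7 and in 59.6% of all genes. Over the 7 its median was 0.55, beside a median of 0.05 over all genes. After rescaling to equal library sums, TUBA1B, TUBB2B, TUBB4B and TUBB6 still did not overlap, and the share of all genes higher at 25 kPa without overlap was 5.33%. After quantile normalisation, TUBA1B, TUBB2B and TUBB6 did not overlap, against 8.41% of all genes, and the median of the 7 was 0.35. The libraries of TUBB and TUBB4B then overlapped.

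The makeup of the beta-tubulin pool was much alike at both stiffness levels. FPKM of the 6 beta-tubulin genes were summed in each library, which gave 627, 612 and 585 at 2 kPa and 921, 913 and 839 at 25 kPa. TUBB4B made up 59.1 ± 1.03% of this sum at 2 kPa and 59.4 ± 3.07% at 25 kPa (SD, n = 3). TUBB made up 32.7 ± 1.47% and 32.3 ± 2.45%, and TUBB2B 7.38 ± 1.47% and 7.73 ± 0.574%. The libraries overlapped for each of these 3 shares. TUBB2A made up 0.367% to 0.480% of the sum at 2 kPa and 0.0865% to 0.288% at 25 kPa, without overlap. The ratio of TUBB2B to TUBB2A, the near-identical pair, was 14.7 to 24.0 at 2 kPa and 27.4 to 94.8 at 25 kPa. TUBB2A was scarce, at 0.79 to 3.01 FPKM, and the ratio of 94.8 came from 25 kPa replicate 2, where it was lowest. Since 60.3% of TUBB2A windows also occur in TUBB2B, its share and this ratio depend on how reads were divided, which is not known.

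The alpha-tubulin sum holds only TUBA1B and TUBA4A, because TUBA1A and TUBA1C have no row in the table. Within this sum, TUBA4A made up 0.0320% to 0.145% and TUBA1B the rest. The ratio of summed alpha- to summed beta-tubulin FPKM was 1.45, 1.16 and 1.39 at 2 kPa and 1.39, 1.53 and 1.43 at 25 kPa. These ranges overlapped, with 2 kPa replicate 2 the lowest library. The alpha sum was 1.59 times and the beta sum 1.47 times as high at 25 kPa as at 2 kPa. With equal library sums the alpha ratio became 1.465 and the beta ratio 1.34. The beta sum includes TUBB, on which the family was selected, and without TUBB it was 1.48 times as high, or 1.35 times with equal library sums. All 8 members together amounted to 0.659%, 0.657% and 0.594% of the summed FPKM of the table at 2 kPa and to 0.951%, 0.879% and 0.866% at 25 kPa. Without TUBB these shares were 0.514% to 0.574% and 0.743% to 0.833%. In RNA from whole wells, a shift in the share of cells that hold a transcript and a shift in the amount per cell cannot be told apart.

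**Figure D4:**
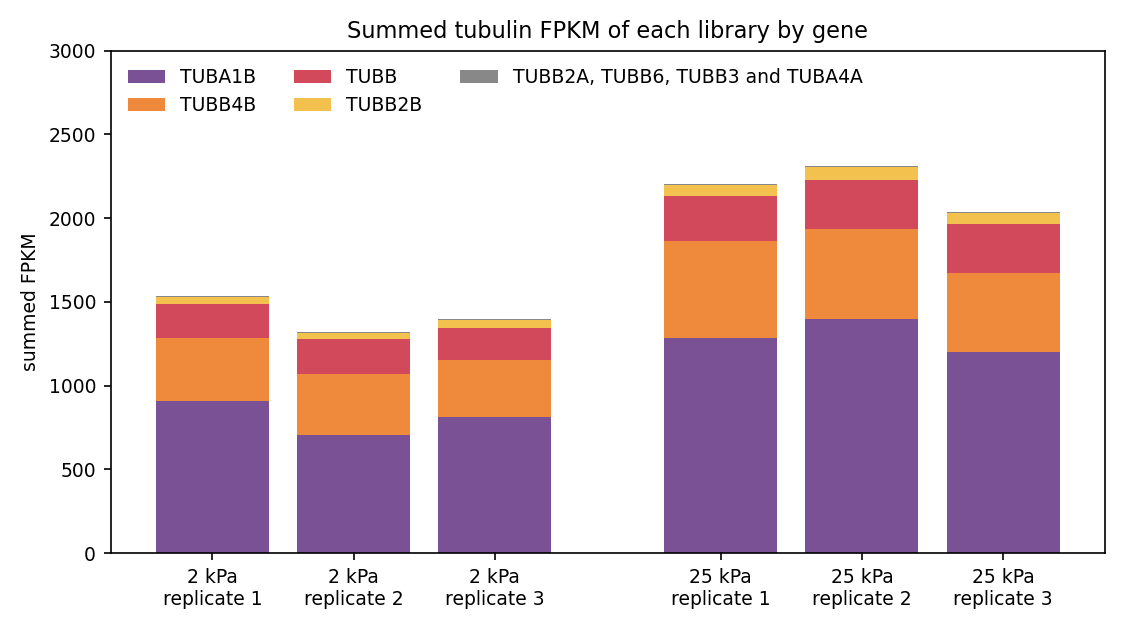
Summed FPKM of the tubulin genes in each library (bars from 0), divided by gene. The bars at 2 kPa reach 1321 to 1538 and those at 25 kPa reach 2038 to 2312, and TUBA1B is the largest segment in all 6 libraries.

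Actin, the other abundant cytoskeletal protein, gave a reference within each library. ACTB and ACTG1, the cytoplasmic actins, summed to 2038, 2757 and 1719 FPKM at 2 kPa and to 1964, 1826 and 1914 FPKM at 25 kPa. The groups overlapped, with 2 kPa replicate 2 the highest library. For ACTG1 alone the libraries at 25 kPa were all below those at 2 kPa, with a log2 difference of -0.24 ± 0.19 (standard error) and a limma adjusted p of 0.752. ACTB overlapped, at -0.06 ± 0.29 (standard error) and a limma adjusted p of 0.969. The ratio of the tubulin sum to this actin sum, which does not depend on the scaling of the library, was 0.755, 0.479 and 0.814 at 2 kPa and 1.12, 1.27 and 1.07 at 25 kPa. This sum contains TUBB. Without TUBB the ratio was 0.403 to 0.705 at 2 kPa and 0.914 to 1.10 at 25 kPa, so that the groups did not overlap. ACTA2, the smooth muscle actin, was scarce and had the smallest p of the actins, with means of 1.17 ± 0.581 and 2.35 ± 0.225 FPKM (SD, n = 3, limma adjusted p = 0.421), and ACTA1 was below 0.1 FPKM on average at both stiffness levels.

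Genes that act on tubulin were followed through 8 lists of the pathway, actins included, of which 66 genes are in the table. None of these, 0 of 66, passed limma's adjusted threshold. At an unadjusted p under 0.05, 8 were higher at 25 kPa, against 6.96% of all genes, and 1 was lower, against 3.19%. The libraries did not overlap for 11 genes that were higher, against 11.2% of all genes, and for 2 that were lower, against 4.78%. The median log2 fold change of the 66 was 0.08.

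Microtubules are nucleated by gamma-tubulin in a ring complex, to which augmin adds branching sites. TUBG1, the main gamma-tubulin gene, had 25.24, 29.27 and 23.68 FPKM at 2 kPa and 41.43, 35.88 and 32.49 FPKM at 25 kPa. Its libraries did not overlap (log2 fold change 0.47, standard error 0.13, limma adjusted p = 0.262), whereas those of its paralog TUBG2 did (log2 fold change -0.27, limma adjusted p = 0.823). Of 18 listed ring complex and augmin genes, 12 are in the table, with a median log2 fold change of 0.28. It was above 0 in 11 of these, against 59.6% of all genes. The smallest p values in this list were those of MZT1, a small subunit of the ring complex, HAUS1, an augmin subunit, and MZT2A, a further small ring subunit. MZT1 had means of 8.26 ± 1.37 and 14.1 ± 2.69 FPKM (SD, n = 3, limma adjusted p = 0.227). HAUS1 and MZT2A, also without overlap, had limma adjusted p values of 0.396 and 0.503.

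Newly made tubulin is folded by the chaperonin CCT, to which prefoldin delivers it, and is then paired by the cofactors TBCA to TBCE. For chaperonin and prefoldin, 11 of 14 listed genes are in the table, with a median log2 fold change of 0.21. It was above 0 in 10 of these genes, against 59.6% of all genes. CCT5 had the smallest p of the 11, with 112 ± 17.4 FPKM at 2 kPa and 141 ± 9.76 FPKM at 25 kPa (SD, n = 3, limma adjusted p = 0.449), followed by PFDN1 (limma adjusted p = 0.523) and TCP1 (limma adjusted p = 0.550). The 6 cofactor genes in the table had a median of 0.09, and libraries overlapped for all of them. TBCB, TBCE and TBCC had the smallest p values among them (limma adjusted p = 0.578, 0.772 and 0.855).

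For the decay of tubulin mRNA, TTC5 had 7.77, 8.32 and 9.14 FPKM at 2 kPa and 7.76, 8.94 and 9.01 FPKM at 25 kPa. The groups overlapped almost fully, and the log2 fold change of 0.02 had a 95% interval from -0.31 to 0.36 (limma adjusted p = 0.978). CNOT11, the subunit of the CCR4-NOT deadenylase that is recruited to tubulin mRNA, had a log2 fold change of 0.06 with an interval from -0.20 to 0.32 (limma adjusted p = 0.909).

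The enzymes that modify tubulin showed no common direction, with 6 of the 11 in the table above 0, against 59.6% of all genes, and a median of 0.01. TTLL11, which adds glutamate chains to the tail, was at 1.06, 1.06 and 0.79 FPKM at 2 kPa and 0.45, 0.44 and 0.72 FPKM at 25 kPa. It was the member of these lists with an unadjusted p under 0.05 and a lower level at 25 kPa (log2 fold change -0.36, limma adjusted p = 0.453). SVBP, the partner of the enzymes that remove the terminal tyrosine of alpha-tubulin, was at 15.0 ± 0.637 and 19.2 ± 3.04 FPKM (SD, n = 3, limma adjusted p = 0.484), and HDAC6, a tubulin deacetylase, at 1.96 ± 0.448 and 2.58 ± 0.457 FPKM (SD, n = 3, limma adjusted p = 0.764).

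Of 41 listed microtubule-associated proteins, 18 are in the table, with a median log2 fold change of 0.07. DCLK1, a doublecortin-like kinase that binds microtubules, had 9.72, 8.97 and 5.93 FPKM at 2 kPa and 24.19, 12.47 and 17.23 FPKM at 25 kPa. Its libraries did not overlap, and the log2 difference was 1.02 ± 0.25 (standard error), with a limma adjusted p of 0.211. CKAP2, a spindle protein, was at 0.840 ± 0.226 and 2.66 ± 1.04 FPKM (SD, n = 3, limma adjusted p = 0.231), also without overlap. CLIP2, a plus-end linker protein, came next by p with overlapping libraries (log2 fold change -0.41, limma adjusted p = 0.746).

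**Figure D5:**
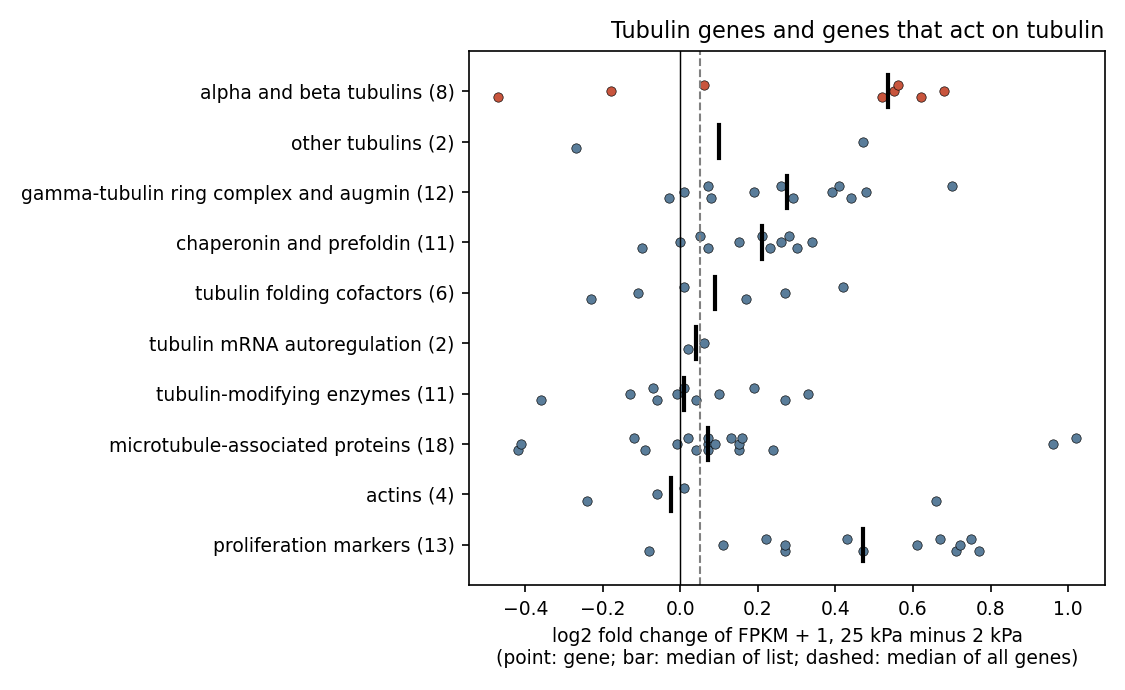
Log2 fold change of FPKM + 1 between 25 kPa and 2 kPa for each gene (points) of the tubulin family, of the lists of genes that act on tubulin, of the actins and of proliferation markers, with the number of genes in the table in brackets. Bars are list medians, which are 0.54 for the alpha and beta tubulins, 0.47 for proliferation markers and -0.03 for actins, and the dashed line is the median of all genes. The tubulin median includes TUBB, on which the family was selected, and is 0.55 without it.

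Markers of proliferation, as a summed level, were higher in every library at 25 kPa than in any at 2 kPa. The same held for the tubulin sum, both with TUBB and without it. Of 17 listed proliferation markers, 13 are in the table. Their summed level was 396 to 470 FPKM at 2 kPa and 560 to 581 FPKM at 25 kPa. A log2 fold change above 0 was found in 12 of the 13, against 59.6% of all genes, and libraries did not overlap in 5 that were higher, against 11.2%. Their median was 0.47, and CCNB2, CCNA2 and CCNB1 had the smallest p values (limma adjusted p = 0.0759, 0.108 and 0.108). The part of proliferation in the tubulin difference was not tested.

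Among markers of colonic epithelium, EPCAM averaged 74.2 and KRT18 2992 FPKM at 2 kPa, whereas CDX1, CDX2 and KRT20 were below 1 FPKM. The 8 of 11 epithelial markers in the table summed to 4481 to 4811 FPKM at 2 kPa and 3690.5 to 4862 FPKM at 25 kPa. The log2 fold change was below 0 in 6 of the 8, whereas it was above 0 in 59.6% of all genes. Libraries were lower at 25 kPa without overlap for 2 of the 8, against 4.78% of all genes. These were KRT19, with means of 1562 and 1132 FPKM (limma adjusted p = 0.537), and CDX2, with means of 0.677 and 0.217 FPKM (limma adjusted p = 0.224). Of the fibroblast markers 2 of 7 are in the table and summed to at most 1.05 FPKM in any library, and of those of leukocytes and endothelium 1 of 7, at most 1.83 FPKM. Neuronal markers, listed because TUBB2B and TUBB3 are also neuronal genes, were present as 2 of 7 and summed to 3.04 to 3.46 FPKM at 2 kPa and 2.51 to 3.31 FPKM at 25 kPa. The FPKM of all genes summed to 201030 to 263028 per library, and libraries of the same stiffness correlated across genes, which are not independent replicates, with a Pearson r of 0.974 to 0.988.

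The genes whose pattern over the 6 libraries was most like that of TUBB were ASF1B, LMNB2, HMGN2, RMI2 and FKBP3. Likeness was the root mean square difference of log2(FPKM + 1) after each gene was centred on its own mean, among the 2228 other genes with a mean of at least 10 FPKM. It was 0.0494 for ASF1B, a histone chaperone, 0.0664 for LMNB2, a nuclear lamin, and 0.0677 for HMGN2, a nucleosome-binding protein. RMI2, part of a complex that resolves DNA junctions, followed at 0.0694 and FKBP3, a nuclear immunophilin, at 0.0937. Within the family, TUBB4B ranked 18th in likeness to TUBB, TUBA1B 138th and TUBB2B 367th. These distances include the difference between the stiffness levels on which TUBB was singled out.

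The bases before the start of TUBB and TUBB4B are shown because these beta-tubulins make up most of the beta pool and have similar fold changes. The sequences are from the RefSeq promoter windows of GRCh38.p14, on the forward strand, and stop before the first annotated base of the gene in GENCODE. Each CCAAT box, searched as CCAAT on both strands, is in capitals.
TUBB (chr6:30720102-30720200): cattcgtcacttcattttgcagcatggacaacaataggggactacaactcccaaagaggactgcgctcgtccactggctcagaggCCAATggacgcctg
TUBB4B (chr9:137241037-137241212): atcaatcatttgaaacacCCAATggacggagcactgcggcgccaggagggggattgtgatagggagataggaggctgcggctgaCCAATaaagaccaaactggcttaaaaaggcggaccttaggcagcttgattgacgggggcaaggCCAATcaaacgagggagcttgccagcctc
All 8 members matched the RefSeq table by symbol, with 11 windows of 300 bases that reach from 250 before to 50 after a start. A CCAAT box was found in 5 of the 11 windows, 1 each of TUBB, TUBB2B, TUBB3, TUBB4B and TUBB6, and in 34.6% of all 35116 windows. TUBB4B holds 3 copies, and 10.8% of all windows hold more than 1. The letters GAANNTTC, the core of the heat shock element that heat shock factors can bind, occurred in 1 of the 11 windows, of TUBB, and in 6.77% of all windows. The letters TTTGAA of the cell cycle homology region occurred in the window of TUBB4B and in 15.2% of all windows, and GGAATG, a TEAD motif, in those of TUBB4B and TUBB6 and in 14% of all windows. The GC box GGGCGG occurred in 8 of the 11 windows, from every member except TUBB4B, and in 45.0% of all windows. The letters TATAAA occurred for TUBB2A (11.5% of all windows), and TTCGAA, a second form of the cell cycle homology region, for TUBB3 (1.45%). Motif letters were searched on both strands, may overlap other motifs, and describe sequence alone.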

How the data were processed

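Labels assigned each of 6 libraries to 2 kPa or 25 kPa. The authors deposited FPKM values per gene symbol and library, with 2 decimals and unpooled replicates. The submitters' processing notes name HISAT, StringTie, Bowtie2, RSEM and hg18 without roles. Annotation and filters are not given in the sources used here. The methods also describe small RNA purification, which was not reconciled with an mRNA table. Low FPKM did not fall on multiples of a single read, so depth is unknown and precision rests on the spread between libraries. DESeq2, named by the authors, needs counts and was not run.

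All 8529 genes were compared as log2(FPKM + 1) with limma 3.58.1 in R 4.3.3 (two-sided, variance trend, Benjamini-Hochberg, adjusted p under 0.05), checked on simulated data. This scale understates changes of low genes. Members and lists were chosen with earlier results of these data known. All members are named, with the 3 smallest p values of each pathway list and the 5 genes most like TUBB. The proliferation and epithelial genes named, and the TUBB2B to TUBB2A and tubulin to actin ratios, were chosen after their values were seen. Coding sequences came from GENCODE v29 and were aligned with Biopython 1.88. The closing bases of the alpha-tubulin genes are not reported here. GRCh38 coordinates are not those of hg18. Alternatives were other pseudocounts, a filter on low FPKM, scalings, no variance trend, a replicate block, other thresholds and each library left out.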

Additional observations from a re-analysis of the deposited data

How the results depend on the processing

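For the 7 members other than TUBB, the number with an adjusted p under 0.05 was 0 in every limma setting tried, and 0 at an adjusted p under 0.1. It was 4 at an unadjusted p under 0.05 and 4 when counted by libraries that did not overlap, all higher at 25 kPa. The shares of all genes higher at 25 kPa were 6.96% and 11.2%. This second count was 4 for equal sums, 4 for median centring and 3 for quantile normalisation, combinations added after seeing the data. The shares of all genes higher at 25 kPa without overlap were then 5.33%, 7.82% and 8.41%. For the 66 genes of the pathway lists, actins included, the number was 9 at an unadjusted p under 0.05 and 13 by libraries that did not overlap. Of these, 8 and 11 were higher at 25 kPa, against 6.96% and 11.2% of all genes. The other 1 and 2 were lower, against 3.19% and 4.78% of all genes. The median log2 fold change of the 8 members was 0.42 with equal library sums and 0.34 after quantile normalisation. With equal library sums the ratio of alpha-tubulin sums was 1.465 and that of beta-tubulin sums 1.34. Without TUBB, left out after seeing the data, the median was 0.55, or 0.43 with equal library sums and 0.35 after quantile normalisation, and the beta ratio was 1.48, or 1.35 with equal library sums. The log2 fold change of TUBB3 was -0.01 with equal library sums and ranged from -0.20 to 0.40 with each library left out. Across all genes, 10 passed the adjusted threshold, against 17 with a pseudocount of 0.1, 6 without a variance trend, 5 without 2 kPa replicate 1, 5 without 25 kPa replicate 1, 3 without 25 kPa replicate 2 and 6 without 25 kPa replicate 3. The share of genes at an unadjusted p under 0.05 that were higher at 25 kPa was 68.6%, against 51.1% for quantile normalisation, 49.9% for median centring and 42.7% for equal sums. Of the 4 members at an unadjusted p under 0.05, TUBB6 was lost with equal sums and without 2 kPa replicate 1, 2 kPa replicate 3, 25 kPa replicate 2 or 25 kPa replicate 3, TUBA1B was lost with median centring, and TUBB2A, lower at 25 kPa, was gained without 25 kPa replicate 3. With the replicate block, 0 of the 7 members and 3 of all genes passed. An unadjusted p under 0.05 was then found for 3 of the 7, without TUBA1B, and for 713 of all 8529 genes. Beyond the shared number, the labels give no pairing of same-numbered libraries. Their deviations from the group means correlated at 0.11, -0.27 and -0.12, and those of differently numbered libraries at -0.24 to 0.29. With 3 libraries per group, these values cannot show whether same-numbered libraries shared a plating or batch. Depth is unknown, so no counting error can be given for the scarce members TUBB2A, TUBB3, TUBB6 and TUBA4A.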
